A study of Mus musculus with 16 samples.

Results

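Myosin light chains and the kinases that phosphorylate them were followed through the quadriceps RNA of mice lacking myotubularin. The set held 10 of the 41388 genes in the count table, taken by gene symbol. It covered the fast light chains *Mylpf* and *Myl1*, the slow light chains *Myl2* and *Myl3*, the fetal light chain *Myl4*, the light chains *Myl6b*, *Myl6* and *Myl9* of slow, nonmuscle and smooth muscle cells, and the kinases *Mylk2* and *Mylk4*. Per the labels, RNA was taken on postnatal day 36 (the day before in a supplement of the study) from 4 groups of C57BL/6 mice with 4 libraries each. WT mice carried intact *Mtm1* and had no drug. WT + TAM mice were wild type and ate chow with tamoxifen, an estrogen receptor modulator, at 40 mg/kg from day 21. *Mtm1* KO mice carried a targeted deletion of exon 4 of *Mtm1*, the gene mutated in X-linked myotubular myopathy, and *Mtm1* KO + TAM mice had the same deletion and the same diet as WT + TAM. The study measured whether tamoxifen altered the transcriptome of the knockout muscle.

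Each myosin head binds an essential light chain and a regulatory light chain, which stiffen its lever arm. Fast, slow and fetal fibers use different light chain genes, and a fetal essential chain is normally replaced by the adult chains as the limb muscle matures. The light chain kinase of skeletal muscle is switched on by calcium-bound calmodulin and phosphorylates the regulatory chain. This potentiates the force of a twitch, and a phosphatase removes the phosphate.

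The 14 libraries that the study used held 25702605 to 29847222 counts each. The 2 libraries that it left out, labelled WT replicate 1 and *Mtm1* KO replicate 12, entered only where stated, so that n was 3 in WT and *Mtm1* KO and 4 in the tamoxifen groups. *Mtm1* itself had 341 to 369 counts in WT, 282 to 459 in WT + TAM, 63 to 76 in *Mtm1* KO and 53 to 97 in *Mtm1* KO + TAM. The library labelled WT replicate 1 had 74 *Mtm1* counts, within the range of the knockout libraries and against its label. Genes whose levels did not overlap between WT and *Mtm1* KO were split in this library. Some were near WT, with *Runx1* at 0.349 RPKM (0.337 to 0.451 in WT, 2.05 to 3.43 in *Mtm1* KO). *Chrna1* was at 6.12 (4.79 to 7.25 and 20.8 to 32.9) and *Myh3* at 0.520 (0.175 to 0.857 and 5.49 to 7.81). Others were in the *Mtm1* KO range, with *Myl12a* at 110 (51.8 to 65.4 and 107 to 124). *Myl1* was at 3295 (5745 to 7967 and 2188 to 3819) and *Mylk4* at 47.9 (85.2 to 101 and 41.7 to 63.4). The other library left out, labelled *Mtm1* KO replicate 12, was also below its own group in these 2 genes. It had *Myl1* at 1100 and *Mylk4* at 16.1, whereas *Myl12a*, at 113, was within its group. What set the 2 libraries apart was not tested. Defining heart transcripts were at or near 0, with a summed level of *Myh6*, *Nppa*, *Myl7* and *Tnni3* of 0.241 to 0.939 RPKM over the 14 libraries, whereas the 6 skeletal fiber markers summed to 35083 to 84400. Levels below are RPKM divided by the TMM factor of the library, a per-length scale on which genes can be compared. A gene passed when its Benjamini-Hochberg adjusted p over all genes tested, from the quasi-likelihood test of edgeR, did not exceed 0.01.

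Promoter sequence was held for 9 of the 10 genes, in 11 windows of RefSeq (GRCm38.p6), and *Mylk2* had no entry. The 3 stretches below end at the base before the start site. They show the fast regulatory chain and kinase genes whose *Mtm1* KO levels all lay below those of WT, beside a light chain gene whose levels all lay above. Capitals mark letters of the form CANNTG (the E-box, bound by myogenic basic helix-loop-helix factors) and, in *Mylk4*, a match to the MEF2 site upstream of them.
*Mylpf*, chr7:127211488-127211607, plus strand: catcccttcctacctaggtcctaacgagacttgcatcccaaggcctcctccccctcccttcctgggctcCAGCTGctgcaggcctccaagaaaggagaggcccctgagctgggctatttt
*Mylk4*, chr13:32783965-32784084, minus strand: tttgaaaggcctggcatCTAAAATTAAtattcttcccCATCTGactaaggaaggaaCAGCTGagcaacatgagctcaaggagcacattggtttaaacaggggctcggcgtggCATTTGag
*Myl6b*, chr10:128498686-128498805, minus strand: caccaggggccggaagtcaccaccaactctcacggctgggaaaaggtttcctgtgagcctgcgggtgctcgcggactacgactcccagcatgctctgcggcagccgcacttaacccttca
Over the 250 bases before the start, searched on both strands, *Mylk4* held 3 E-boxes, and it was the only one of the 9 genes with a MEF2 site. *Mylpf* and *Myl6b* held 1 E-box each, that of *Myl6b* lying upstream of the stretch shown. The only *Myl4* window, at the upstream end of its annotated span, held neither motif and no CArG box, the letters bound by serum response factor. Other start sites of *Myl4* were not searched. An E-box was present in 66.2% of 32851 windows of this length, a MEF2 site in 2.92% and a CArG box in 1.47%.

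Per length, the fast chains were the most abundant of the 10 transcripts in WT. *Mylpf*, the fast regulatory chain, lay at 17096 to 26239 RPKM and *Myl1*, the fast essential chain, at 5745 to 7967, with no overlap between them. *Mylk2* followed at 236 to 282 and overlapped *Myl6* at 224 to 258. Below them came *Mylk4* at 85.2 to 101, *Myl9* at 49.7 to 62.6, *Myl6b* at 4.21 to 11.5 and *Myl4* at 0.822 to 1.35, none of which overlapped its neighbor in this order. *Myl2* and *Myl3* had no fixed place, because they ranged from 0.260 to 49.7 and from 0.486 to 156 between the 3 WT libraries.

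**Figure D1:**
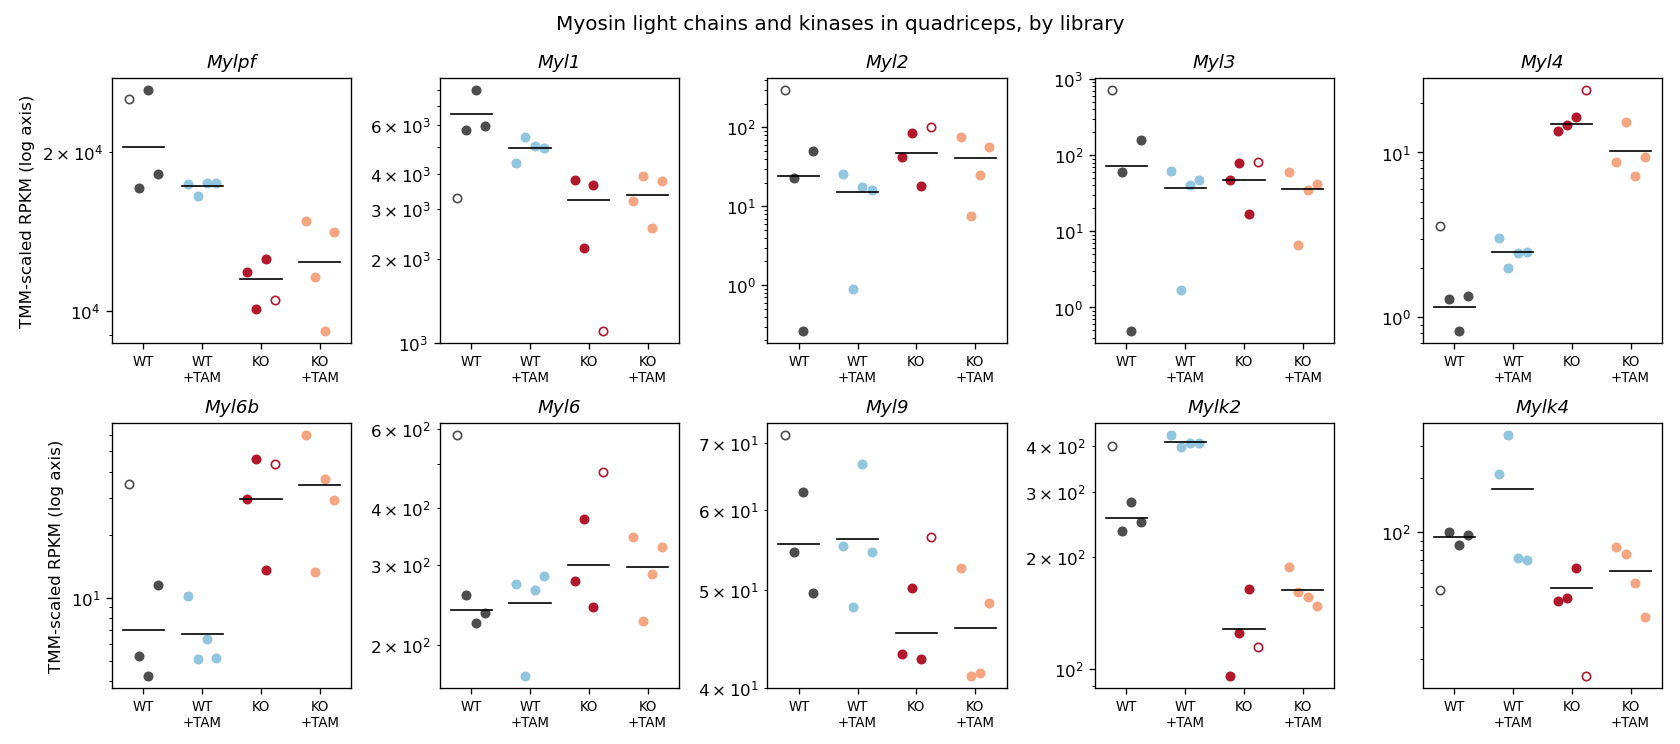
Level of each of the 10 genes in every library, as TMM-scaled RPKM on log axes that differ between panels. Each point is 1 mouse, lines are means of filled points, and open points are WT replicate 1 and *Mtm1* KO replicate 12, which the means leave out. The *Myl4* points of *Mtm1* KO (13.5 to 16.3) all lie above those of WT (0.822 to 1.35), and the *Mylk2* points of WT + TAM (397 to 426) above those of the other filled groups.

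The fetal essential chain separated *Mtm1* KO from WT more than any other of the 10 genes. *Myl4*, which is used by embryonic skeletal muscle and by the adult atrium, lies on chromosome 11 (GRCm38, 104550663 to 104595753, plus strand). Its levels were 1.30, 0.822 and 1.35 RPKM in WT, and 13.5, 14.6 and 16.3 in *Mtm1* KO. It therefore rose 13-fold, a log2 fold change of 3.70 ± 0.20 (SE of the fit, adjusted p = 7.99e-05 in edgeR), with no overlap between the groups. In this comparison 1 of the 10 genes passed, *Myl4*, against 3.6% of all 14740 genes tested, and 1.91% of all genes passed as higher. At an adjusted p of at most 0.05 there were 6 of 10 against 12.8% of all genes, and the groups did not overlap for 6 of 10 against 36.2% of all genes. The 10 log2 fold changes had a median of -0.43, beside 0.02 over all genes.

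*Myl4* was also above WT in the tamoxifen groups. The WT + TAM libraries had 3.04, 2.0, 2.45 and 2.51 RPKM, each above every WT library among the 14. The library labelled WT replicate 1, outside the 14, had 3.59 RPKM, above all of these, and with it the groups overlapped. The log2 fold change of WT + TAM over WT was 1.10 ± 0.22 with an adjusted p of 0.0710 in edgeR, so that it did not pass, and with all 16 libraries it was 0.51 (adjusted p = 0.740 in edgeR). DESeq2 on the 14 libraries gave 1.11 and an adjusted p of 4.64e-04. In *Mtm1* KO + TAM the libraries had 8.80, 15.3, 7.16 and 9.45 RPKM, and the second of these lay within the *Mtm1* KO range. Against WT + TAM, *Myl4* rose by 2.03 ± 0.23 on the log2 scale (adjusted p = 3.42e-04 in edgeR), and against WT by 3.14 ± 0.28 (adjusted p = 1.94e-04 in edgeR). The change from *Mtm1* KO to *Mtm1* KO + TAM was -0.55 ± 0.22 with an adjusted p of 0.556 in edgeR, and the groups overlapped. The tamoxifen effect on *Myl4* in *Mtm1* KO minus that in WT was -1.64 ± 0.33 on the log2 scale, with an adjusted p of 0.270 in the edgeR fit of the 4 groups. DESeq2 gave -1.65 and an adjusted p of 0.00364 for this difference, and it was the only one of the 10 genes that either tool called. With all 16 libraries *Myl4* still passed in *Mtm1* KO against WT (3.30, adjusted p = 0.00316 in edgeR) and in *Mtm1* KO + TAM against WT (2.53, adjusted p = 0.00736 in edgeR). The comparisons share their control libraries, and their values are not independent of each other.

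Even at its highest, *Myl4* was a small part of the essential chain transcripts. Its share of the summed RPKM of *Myl1*, *Myl3* and *Myl4* was 0.0183% ± 0.00688 (SD, n = 3) in WT and 0.476% ± 0.149 (SD, n = 3) in *Mtm1* KO. With tamoxifen it was 0.0507% ± 0.0131 (SD, n = 4) in WT + TAM and 0.294% ± 0.0639 (SD, n = 4) with the deletion as well. The share did not overlap between *Mtm1* KO and WT (two-sided exact permutation p = 0.1, the smallest that 3 against 3 allows) or between *Mtm1* KO + TAM and WT + TAM (p = 0.0286, the smallest that 4 against 4 allows). Of 15 tests of 3 such shares, 0 passed after adjustment, and 0.286 was the lowest adjusted value.

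Other genes of immature or denervated fibers rose with *Myl4* in *Mtm1* KO against WT. Embryonic *Myh3* and perinatal *Myh8*, the developmental myosin heavy chains, rose by 3.89 ± 0.44 and 2.60 ± 0.18 on the log2 scale in *Mtm1* KO against WT (adjusted p = 0.00134 and 2.14e-04 in edgeR). Of 6 markers of regenerating or denervated fibers, 5 rose in this comparison (*Myog*, *Ncam1*, *Chrng*, *Chrna1* and *Runx1*). The summed level of all 6 markers, which include *Mymk*, was 26.7 to 32.8 RPKM in WT and 88.5 to 139 in *Mtm1* KO. Their part in the result was not tested. By the root mean square difference of centered log2 CPM over the 14 libraries, the genes closest to *Myl4* were *Cdkn1a*, a cell cycle inhibitor, at 0.363, *Mgp* at 0.472 and *Crabp2* at 0.534, where the median gene was at 1.49. Genes that are antisense to *Myl4* lie within its span, and the strand setting of the counting is not given in the sources used here.

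The adult fast chains were lower in *Mtm1* KO without passing the test. *Mylpf* (chromosome 7, 127208890 to 127214298, plus strand) had 17096, 26239 and 18199 RPKM in WT against 11840, 10058 and 12535 in *Mtm1* KO. The groups did not overlap, and the log2 fold change was -0.81 ± 0.22 with an adjusted p of 0.0405 in edgeR. *Myl1* (chromosome 1, 66924295 to 66945404, minus strand) had 5745, 7967 and 5933 RPKM in WT against 3819, 2188 and 3670, a log2 fold change of -1.0 ± 0.25 (adjusted p = 0.0327 in edgeR), again without overlap. Of the 50-base stretches in *Myl1* exons, 11.7% also occur in another gene, mostly the pseudogene *Mylf-ps*, and reads from there may be lost or shared.

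With tamoxifen the fast chains stood in the same order. *Mylpf* was at 17417, 16506, 17528 and 17479 RPKM in WT + TAM and at 14787, 11565, 9133 and 14095 in *Mtm1* KO + TAM, a log2 fold change of -0.47 ± 0.17 (adjusted p = 0.0817 in edgeR). *Myl1* was at 4382, 5425, 5062 and 4979 RPKM against 3210, 3929, 2578 and 3790, a log2 fold change of -0.55 ± 0.16 (adjusted p = 0.0405 in edgeR). Neither gene overlapped between these groups, and neither passed. Against WT, *Myl1* in *Mtm1* KO + TAM came close to the threshold at -0.96 ± 0.21 (adjusted p = 0.0103 in edgeR), while *Mylpf* was at -0.73 ± 0.23 (adjusted p = 0.0493 in edgeR). Each *Myl1* level of WT + TAM also lay below each of WT, with a log2 fold change of -0.40 ± 0.16 and an adjusted p of 0.402 in edgeR.

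Markers of the skeletal fiber were at lower summed levels in knockout mice too. In *Mtm1* KO + TAM against WT + TAM, 1 of 6 passed, *Ckm*, at -0.87 ± 0.18 (adjusted p = 0.00812 in edgeR). At an adjusted p of at most 0.05 there were 5 of 6. The summed level of *Ckm*, *Acta1*, *Ttn*, *Casq1*, *Neb* and *Tnnt3* was 66012 to 84400 RPKM in WT and 39863 to 45119 in *Mtm1* KO, where 0 of the 6 passed and their median log2 fold change was -0.82. In RNA from whole muscle, fewer fibers of a type and less RNA per fiber cannot be told apart, and the part of this shift in the fast chain values was not tested. The scaling also matters for genes this abundant. The 10 genes took 2.74 to 3.54% of all counts in WT and 1.73 to 2.27% in *Mtm1* KO, and with library size alone the median over all genes moved from 0.02 to 0.33 on the log2 scale. The log2 fold change of *Mylpf* was then -0.49 and that of *Myl1* -0.68, both still negative. Among 13 myosin heavy chains, 2 rose and 0 fell in *Mtm1* KO against WT. *Myh4*, the fast 2B heavy chain, had a log2 fold change of -1.30 ± 0.27 there, without overlap (adjusted p = 0.0184 in edgeR). It fell by 1.24 on the log2 scale in *Mtm1* KO + TAM against WT + TAM (SE 0.16, adjusted p = 8.33e-04 in edgeR), where *Myh13*, the extraocular heavy chain, fell by 1.77 (SE 0.25, adjusted p = 0.00133 in edgeR). In that comparison 2 of the 13 rose, again *Myh3* at 3.35 and *Myh8* at 1.83. Against WT, *Mtm1* KO + TAM had *Myh3* up by 3.93, *Myh8* up by 3.34 and *Myh4* down, with a log2 fold change of -1.37. The tamoxifen comparisons within a genotype called 0 of the 13. At an adjusted p of at most 0.05 there was 1 in WT + TAM against WT. This was *Myh8* at 1.51 ± 0.23, without overlap (adjusted p = 0.0253 in edgeR).

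**Figure D2:**
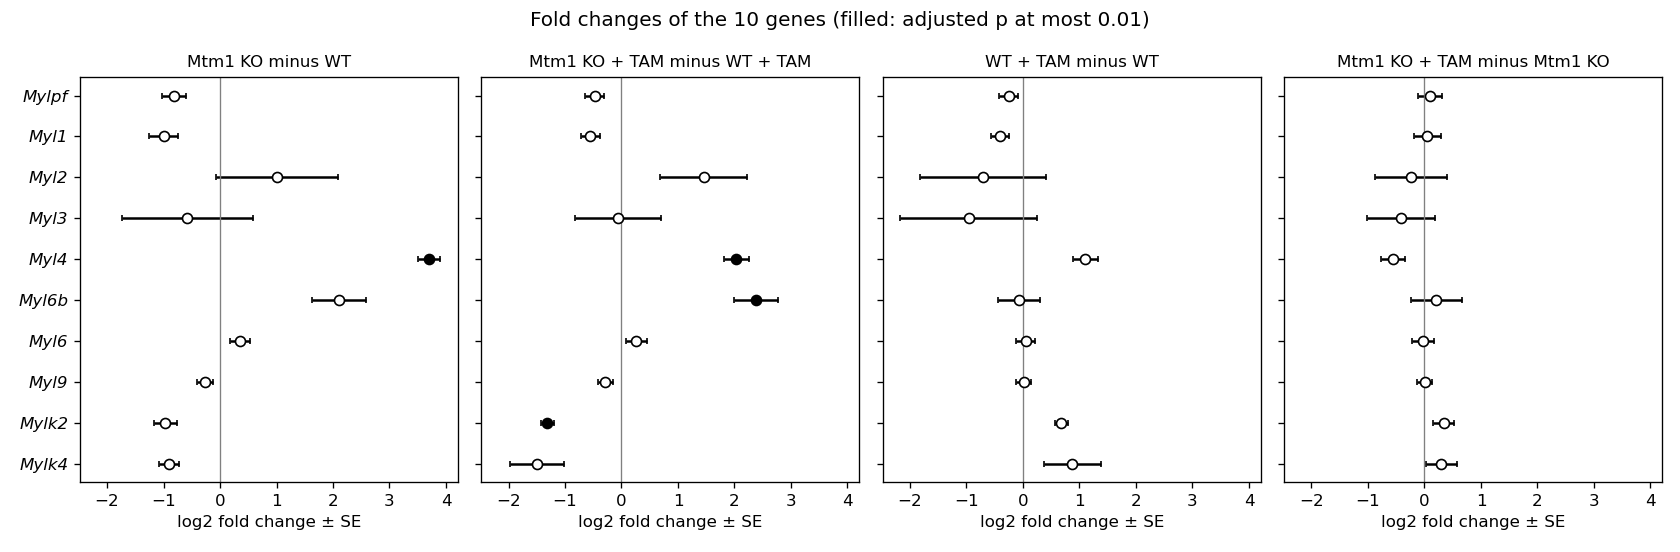
Log2 fold change of the 10 genes in 4 comparisons, with bars of 1 SE of the edgeR fit and filled points for an adjusted p of at most 0.01. *Myl4* is filled at 3.70 in *Mtm1* KO minus WT, *Myl4*, *Myl6b* and *Mylk2* are filled in *Mtm1* KO + TAM minus WT + TAM, and no point is filled in either tamoxifen comparison.

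The slow chains varied more between mice of 1 group than between groups. *Myl2*, the slow and ventricular regulatory chain (chromosome 5, 122100951 to 122113472, plus strand), was at 22.8, 0.260 and 49.7 RPKM in WT and at 41.9, 83.8 and 17.9 in *Mtm1* KO. In WT + TAM it was at 25.4, 0.908, 17.5 and 16.1 RPKM, and in *Mtm1* KO + TAM at 74.8, 7.50, 24.8 and 56.9. All 4 groups overlapped. The lowest WT library held 12 *Myl2* counts and the highest 2485, so the spread was not one of counting alone. The log2 fold change of *Mtm1* KO over WT was 1.01 ± 1.08 (adjusted p = 0.575 in edgeR), and that of *Mtm1* KO + TAM over WT + TAM 1.46 ± 0.77 (adjusted p = 0.218 in edgeR).

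*Myl3*, the slow and ventricular essential chain (chromosome 9, 110741861 to 110769798, plus strand), was high and low in the same mice. It had 60.7, 0.486 and 156 RPKM in WT and 46.5, 78.9 and 17.0 in *Mtm1* KO. With tamoxifen it had 61.3, 1.69, 40.0 and 46.7 RPKM in WT + TAM and 60.5, 6.65, 35.1 and 41.4 in *Mtm1* KO + TAM. Its log2 fold change was -0.58 ± 1.16 in *Mtm1* KO against WT (adjusted p = 0.779 in edgeR) and -0.06 ± 0.77 in *Mtm1* KO + TAM against WT + TAM (adjusted p = 0.969 in edgeR). The sign of both turned when single libraries were left out, and no direction is given for this gene. *Ccdc63* and *Pth1r* lie on the opposite strand within the annotated spans of *Myl2* and *Myl3*.

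The low mice were low in slow-fiber genes as a class. In each group 1 library had the lowest *Myl2*, *Myl3*, *Myl6b* and *Myh7*, the slow heavy chain: replicate 3 of WT, 6 of WT + TAM, 11 of *Mtm1* KO and 14 of *Mtm1* KO + TAM. Of 7 other slow-fiber markers (*Tnnt1*, *Tnni1*, *Tnnc1*, *Myoz2*, *Atp2a2*, *Casq2* and *Tpm3*), 7 were lowest in that library in each of the first 3 groups and 5 in the last. The summed level of these markers was 36.1 to 200 RPKM in WT and 184 to 508 in *Mtm1* KO, and 48.0 to 140 in WT + TAM against 201 to 455 in *Mtm1* KO + TAM. Of these markers 3 of 7 (*Tnni1*, *Myoz2* and *Atp2a2*) rose in *Mtm1* KO + TAM against WT + TAM, and in *Mtm1* KO against WT 0 of 7 passed, with a median log2 fold change of 1.81. The 3 genes closest to *Myl2* over the 14 libraries were *Myh7* at a root mean square difference of 0.439, the slow troponin C gene *Tnnc1* at 0.654 and *Myl3* at 0.720, where the median gene was at 2.27. How much slow muscle each dissected piece held is not given in the sources used here.

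**Figure D3:**
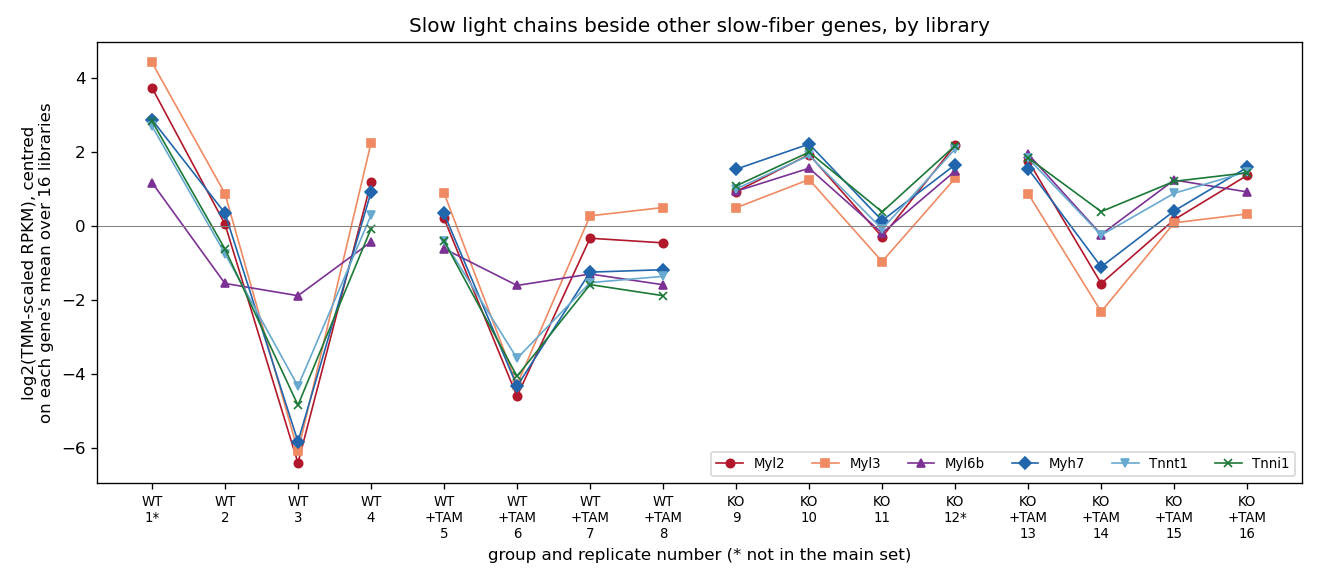
Level of *Myl2*, *Myl3*, *Myl6b*, *Myh7*, *Tnnt1* and *Tnni1* in the 16 libraries, as log2 of TMM-scaled RPKM centered on the mean of each gene. Lines join the libraries of a group, and asterisks mark the 2 libraries outside the set of 14. All 6 genes are lowest in replicate 3 of WT, 6 of WT + TAM, 11 of *Mtm1* KO and 14 of *Mtm1* KO + TAM, and *Myl6b* dips less than the others in the wild-type groups.

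In the ratio of the slow chains to each other, the libraries of the 2 genotypes did not overlap. *Myl2* over *Myl3* (RPKM) was 0.376, 0.536 and 0.318 in WT and 0.414, 0.536, 0.438 and 0.344 in WT + TAM. It was 0.902, 1.06 and 1.06 in *Mtm1* KO and 1.24, 1.13, 0.707 and 1.37 in *Mtm1* KO + TAM. The knockout libraries thus lay above all wild-type libraries with and without the drug, although the level of either gene alone overlapped. The mean ratio was 1.01 ± 0.0911 (SD, n = 3) in *Mtm1* KO against 0.410 ± 0.113 (SD, n = 3) in WT, with a two-sided exact permutation p of 0.1, the smallest possible. It was 1.11 ± 0.287 (SD, n = 4) in *Mtm1* KO + TAM against 0.433 ± 0.0793 (SD, n = 4) in WT + TAM (two-sided exact permutation p = 0.0286, the smallest possible). Adjusted over the 10 tests of 2 ratios, these became 0.2 and 0.143, so that neither passed. Over all 16 libraries the range was 0.318 to 0.536 in the 8 wild-type and 0.707 to 1.37 in the 8 knockout libraries, with 0.415 in the library labelled WT replicate 1. The ratio is imprecise where slow transcripts were rare: with 12 *Myl2* and 15 *Myl3* counts, the exact 95% interval in WT replicate 3 was 0.229 to 1.23, for counting error only. In WT + TAM replicate 6, with 44 and 55 counts, the interval was 0.352 to 0.811, which reaches the lowest knockout ratio. Because this ratio was chosen after the data had been seen, its p values cannot serve as a test of it.

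**Figure D4:**
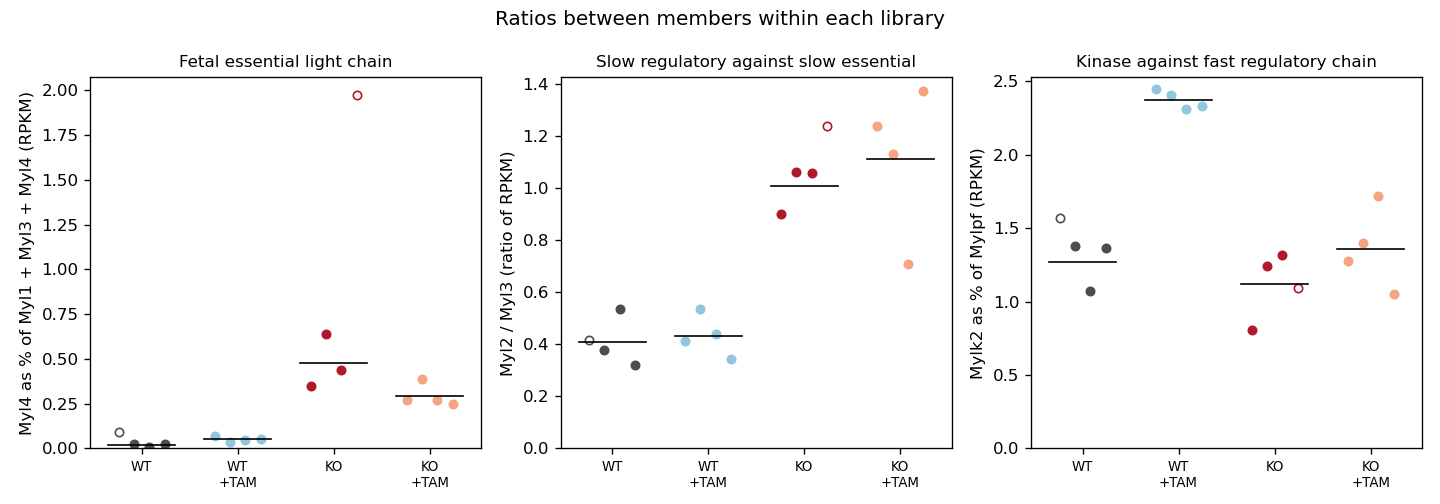
Ratios within each library, from RPKM: *Myl4* as a percent of *Myl1*, *Myl3* and *Myl4* (left), *Myl2* over *Myl3* (middle) and *Mylk2* as a percent of *Mylpf* (right). Points are mice, lines are means of filled points, and open points are the 2 libraries outside the set of 14. *Myl2* over *Myl3* lies at 0.318 to 0.536 in wild-type and 0.707 to 1.37 in knockout libraries, and *Mylk2* per *Mylpf* is highest in WT + TAM.

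*Myl6b*, an essential chain of slow muscle and of nonmuscle cells, was higher in knockout mice. It lies on chromosome 10 (128494157 to 128498685, minus strand), next to *Myl6*. In WT it had 5.29, 4.21 and 11.5 RPKM and in *Mtm1* KO 29.7, 45.8 and 13.6, a log2 fold change of 2.11 ± 0.47 with an adjusted p of 0.0222 in edgeR. The groups did not overlap, though the lowest *Mtm1* KO and the highest WT library were close, and with all 16 libraries the value was 1.26 (adjusted p = 0.295 in edgeR). In WT + TAM it had 10.2, 5.10, 6.32 and 5.17 RPKM and in *Mtm1* KO + TAM 59.6, 13.2, 36.7 and 29.4. There it rose 5.20-fold (log2 fold change 2.38 ± 0.39, adjusted p = 0.00266 in edgeR), and against WT it rose by 2.31 ± 0.48 (adjusted p = 0.00818 in edgeR). The lowest level of each group came from the mouse lowest in slow-fiber genes, and the part of slow fibers in the rise was not tested.

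*Myl6* and *Myl9*, the essential and regulatory chains of smooth muscle and nonmuscle myosin, passed in no comparison. *Myl6* (chromosome 10, 128490860 to 128494145, minus strand) had 258, 224 and 235 RPKM in WT and 276, 379 and 243 in *Mtm1* KO, a log2 fold change of 0.35 ± 0.17 (adjusted p = 0.215 in edgeR). Of its 50-base stretches 8.38% also occur elsewhere, mostly in *Gm5526*. *Myl9* (chromosome 2, 156775420 to 156781658, plus strand) had 54.6, 62.6 and 49.7 RPKM against 43.2, 50.2 and 42.7, a log2 fold change of -0.27 ± 0.14 (adjusted p = 0.221 in edgeR), which became 0.05 with library size alone. The groups overlapped for both genes. Of 6 smooth muscle markers 0 passed, and their summed level was 167 to 178 RPKM in WT and 122 to 146 in *Mtm1* KO.

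The kinase *Mylk2* separated the 2 tamoxifen groups with the lowest p of the 10 genes. It encodes the light chain kinase of skeletal muscle and lies on chromosome 2 (152911352 to 152923068, plus strand). It had 426, 397, 406 and 407 RPKM in WT + TAM and 189, 162, 157 and 148 in *Mtm1* KO + TAM. It therefore fell by 1.32 on the log2 scale (SE 0.12, adjusted p = 9.09e-05 in edgeR). In this comparison 3 of the 10 genes passed against 6.72% of all genes, 2 as higher against 3.42% and 1 as lower against 3.3%. At an adjusted p of at most 0.05 there were 4 of 10 against 17% of all genes, and 5 of 10 had no overlap against 22.5%.

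Without the drug *Mylk2* differed in the same direction. The WT libraries had 236, 282 and 249 RPKM and the *Mtm1* KO libraries 95.7, 125 and 165. They did not overlap, and the log2 fold change of -0.97 ± 0.20 had an adjusted p of 0.0163 in edgeR, short of the threshold. Against WT, *Mylk2* in *Mtm1* KO + TAM fell by 0.64 (SE 0.13, adjusted p = 0.00862 in edgeR). In that comparison 3 of the 10 genes (*Myl4*, *Myl6b* and *Mylk2*) passed against 7.7% of all genes, 2 higher against 3.56% and 1 lower against 4.14%. There were 5 of 10 at an adjusted p of at most 0.05 against 20% of all genes, and 6 of 10 had no overlap against 31.3%. The *Mylk2* call did not pass when any 1 of WT replicates 2, 3 and 4 or *Mtm1* KO + TAM replicates 14, 15 and 16 was left out (adjusted p 0.0161 to 0.0323 in edgeR). Likewise, the *Myl6b* call did not pass without WT replicate 2 or 3 or *Mtm1* KO + TAM replicate 13, 15 or 16 (adjusted p 0.0131 to 0.0291 in edgeR). With all 16 libraries neither passed, *Mylk2* at -0.83 (adjusted p = 0.0291 in edgeR) and *Myl6b* at 1.31 (adjusted p = 0.258 in edgeR). With library size alone *Mylk2* was at -0.36 (adjusted p = 0.05003 in edgeR) and did not pass.

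In wild-type mice *Mylk2* was the gene of the set with the lowest adjusted p for tamoxifen. All 4 WT + TAM libraries (397 to 426 RPKM) lay above all 3 WT libraries (236 to 282). The log2 fold change was 0.68 ± 0.11 with an adjusted p of 0.0330 in edgeR, and DESeq2 gave 0.69 and an adjusted p of 3.28e-07. The library labelled WT replicate 1, whose *Mtm1* count goes against its label, had 398 RPKM. With it the groups overlapped, and over all 16 libraries the log2 fold change was 0.50 (adjusted p = 0.493 in edgeR). In the edgeR test 0 of the 10 genes passed against 0.131% of all genes, and at an adjusted p of at most 0.05 there was 1 of 10 against 0.55%. Before adjustment, 3 of 10 (*Mylk2*, *Myl4* and *Myl1*) had a p of at most 0.05 against 10.7% of all genes, the same 3 that had no overlap, against 11.6%. The log2 fold changes of the 10 genes ran from -0.96 to 1.10.

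*Mylk2* was also higher in WT + TAM relative to its substrate. As a percent of *Mylpf* RPKM it was 1.38, 1.07 and 1.37 in WT and 2.45, 2.41, 2.31 and 2.33 in WT + TAM. The knockout libraries had 0.808, 1.25 and 1.31 without and 1.28, 1.40, 1.72 and 1.05 with the drug, and these groups overlapped WT. The mean was 2.37 ± 0.0630 (SD, n = 4) in WT + TAM against 1.27 ± 0.173 (SD, n = 3) in WT (two-sided exact permutation p = 0.0571, the smallest that 4 against 3 allows, 0.143 after adjustment). This measure too was chosen after the data had been seen. By root mean square difference the genes closest to *Mylk2* were *Gm20683* at 0.248, *Bpgm*, bisphosphoglycerate mutase, at 0.252 and *Pgm2l1* at 0.259, where the median gene was at 0.763.

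*Mylk4*, a kinase of the same family (chromosome 13, 32700834 to 32783954, minus strand), had 101, 85.2 and 96.6 RPKM in WT and 41.7, 43.6 and 63.4 in *Mtm1* KO. The groups did not overlap, and the log2 fold change was -0.90 ± 0.18 with an adjusted p of 0.0145 in edgeR. In WT + TAM it had 208, 341, 72.6 and 70.6 RPKM, so that 2 mice stood far above WT and 2 below it. *Mylk2* in those 4 mice spanned only 397 to 426. The 2 low libraries, replicates 7 and 8, were close in other genes too, with *Myh2* at 149 and 145 RPKM. In replicates 5 and 6 *Myh2* was at 120 and 47.7. *Myh7* was at 3.41 and 3.56 beside 10.2 and 0.403, whereas *Adgre1* differed between replicates 7 and 8, at 1.89 and 3.11. Whether these 2 libraries are independent was not tested. The log2 fold change of *Mylk4* in WT + TAM over WT was 0.87 ± 0.50 (adjusted p = 0.583 in edgeR). *Mtm1* KO + TAM had 83.2, 75.7, 52.6 and 34.1 RPKM, at -1.49 ± 0.48 against WT + TAM (adjusted p = 0.0522 in edgeR) and -0.62 ± 0.25 against WT (adjusted p = 0.111 in edgeR).

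Tamoxifen in knockout mice moved none of the 10 genes past the test. Against *Mtm1* KO, *Mtm1* KO + TAM had 0 of 10 passing, where 0% of all 15062 genes passed. Before adjustment, 1 of 10, *Myl4*, had a p of at most 0.05 against 7.55% of all genes, and 0 of 10 had no overlap against 7.57%. The log2 fold changes ran from -0.55 for *Myl4* to 0.34 for *Mylk2*, the latter with an SE of 0.18 and an adjusted p of 0.756 in edgeR. For the difference between the tamoxifen effects in the 2 genotypes, 0 of 10 passed against 0% of all genes, and before adjustment 1 of 10, *Myl4*, had a p of at most 0.05 against 4.27%. DESeq2 called 0 of the 10 in the first of these comparisons and 1 in the second.

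The rest of the phosphorylation pathway was described by 2 lists. Of 6 other light chains and kinases, *Myl12a*, a nonmuscle regulatory chain, was the only one to pass in any comparison. It had 63.2, 51.8 and 65.4 RPKM in WT and 124, 107 and 124 in *Mtm1* KO. It rose by 1.0 ± 0.14 on the log2 scale there, by 1.14 ± 0.16 in *Mtm1* KO + TAM against WT + TAM and by 1.28 ± 0.18 against WT (adjusted p = 0.00344, 0.00109 and 0.00117 in edgeR). The atrial chain *Myl7* was too low to test in all comparisons and the cardiac kinase *Mylk3* in *Mtm1* KO against WT.

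Of 12 genes for calmodulin, the myosin phosphatase and its regulators, 0 rose and 1 fell in *Mtm1* KO against WT. This was *Calm3*, which encodes calmodulin, the calcium sensor that activates the light chain kinase of skeletal muscle. It had 178, 268 and 171 RPKM in WT and 69.8, 53.4 and 72.2 in *Mtm1* KO, and fell by 1.63 on the log2 scale (SE 0.21, adjusted p = 0.00216 in edgeR). In *Mtm1* KO + TAM against WT + TAM, 0 rose and 2 fell, *Calm3* by 1.22 and *Ppp1r14c*, a phosphatase inhibitor, with a log2 fold change of -0.54. Against WT, *Mtm1* KO + TAM had 1 that rose, *Rock1*, a kinase that inhibits the phosphatase, at 0.73, and 2 that fell, *Calm3* at -1.46 and *Ppp1r14c* at -0.76. The 2 tamoxifen comparisons within a genotype called 0 of the 12, and 0 of the 6 other light chains and kinases.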

How the data were processed

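RNA of 16 quadriceps libraries (discrete mice) was analysed. Per the authors, reads were aligned to GRCm38 with STAR in 2 steps and counted per gene with HTSeq as raw counts. The submitters' processing notes name STAR 2.5.0c, bcl2fastq 2.17 and Cufflinks 2.2.1. The deposited RPKM values scale these counts by total count and gene length. The annotation, the gene lengths and the strand setting are not given in these sources. 0 of 120 library pairs were identical in every count, a check that does not find closely related libraries.

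The counts of 14 libraries were tested with edgeR 4.0.16 (R 4.3.3) between the 2 groups compared, with TMM normalization, filterByExpr (at least 10 counts, 15 in total) and quasi-likelihood tests. Genes with a Benjamini-Hochberg adjusted p up to 0.01 were called. The interaction was fitted over 4 groups. The scripts were tested on simulated data. Shares and ratios were compared with exact permutation tests. TMM factors for levels were computed over 16 libraries. All 10 genes were named, with pathway genes that passed and the 3 nearest genes of *Myl4*, *Myl2* and *Mylk2*. Members and lists were chosen with earlier results of these data known. A pathway gene is not reported here. Positions are from GENCODE vM21. Alternatives were DESeq2 1.42.0, RLE, library size alone, no filter, a threshold of 0.05, 1 fit, all 16 libraries and leaving out each library.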

Additional observations from a re-analysis of the deposited data

Results flagged for a closer look

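A library was set apart where its gap to the nearest of the other 3 in its group, over the range of the group passed the 95% critical value of Dixon for 4 samples. This was applied to 52 groups of 4 libraries, of which chance sets apart about 1 in 20, and it marked 5.

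The library labelled WT replicate 1 accounted for 4 of the 5. Its *Myl2* level was 293.5 RPKM, where the other WT libraries lay at 0.260 to 49.7. Its *Myl6* level was 579 RPKM against 224 to 258. *Myl3* made up 17.6% of its sarcomeric essential chain RPKM against 0.00610 to 2.56%, and *Myl4* 0.0897% against 0.0103 to 0.0224%. Its slow-fiber marker sum of 906 RPKM was above that of the other 15 libraries, its *Mtm1* count of 74 went against its label, and it was left out of the 14 libraries tested.

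The remaining one was *Mylpf* in WT + TAM replicate 6, at 16506 RPKM where the other 3 libraries lay at 17417 to 17528. This group was the tightest of the 4 for *Mylpf*, and the same mouse had the lowest *Myl2* and *Myl3* of its group.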

How the results depend on the processing

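No paired analysis was possible because the replicate numbers of the 4 groups run from 1 to 16 and the groups share none. The mice are described as littermates, but no label ties a mouse to a litter, so shared litters could not be modeled. The number of the 10 genes that passed in *Mtm1* KO against WT, 1 in the main test, was 5 with DESeq2 (also *Myl1*, *Mylpf*, *Mylk2* and *Mylk4*), 5 without the filter (also *Myl1*, *Myl6b*, *Mylk2* and *Mylk4*), 6 at an adjusted p of 0.05, 3 with 1 fit over the 4 groups and 1 to 2 when each library was left out (2 without *Mtm1* KO replicate 11, which added *Mylk4*). In *Mtm1* KO + TAM against WT, 3 in the main test, it was 5 with DESeq2, 5 at 0.05, 1 with all 16 libraries, 2 with library size alone (without *Mylk2*) and 1 to 2 when each library was left out (1 without WT replicate 2 or 3 or *Mtm1* KO + TAM replicate 15 or 16). In WT + TAM against WT, 0 in the main test, it was 2 with DESeq2 and 1 at 0.05. For the difference between tamoxifen effects it was 1 with DESeq2. In *Mtm1* KO + TAM against WT + TAM it was 3 whichever library was left out. *Myl9* in *Mtm1* KO against WT turned to 0.0494 with library size alone and *Myl2* to -0.58 with all 16 libraries. *Myl3* ran from -1.17 to 0.66 there when each library was left out (0.66 without WT replicate 4). In *Mtm1* KO + TAM against WT + TAM it was 0.21 with library size alone and -0.46 to 0.29 when each was left out. Of 890 recomputed values of the 10 genes, 58 changed sign, 0 of them for a value that passed in the main test. Where a count or sign changed, the cause was not tested.

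Differences in shares are in percentage points. With raw counts the *Myl2* share moved to 0.666 in *Mtm1* KO minus WT, 0.492 in *Mtm1* KO + TAM minus WT + TAM and 0.382 in *Mtm1* KO + TAM minus WT. The *Myl4* share moved to 1.02 in *Mtm1* KO minus WT, -0.409 in *Mtm1* KO + TAM minus *Mtm1* KO, 0.0726 in WT + TAM minus WT, 0.544 in *Mtm1* KO + TAM minus WT + TAM and 0.616 in *Mtm1* KO + TAM minus WT. Counts are not divided by gene length, which by construction changes a share. With all 16 libraries the *Myl2* share moved to -0.303 in WT + TAM minus WT and -0.0781 in *Mtm1* KO + TAM minus WT. The *Myl3* share moved to -2.36 in *Mtm1* KO minus WT, -1.85 in *Mtm1* KO + TAM minus *Mtm1* KO, -4.53 in WT + TAM minus WT and -4.21 in *Mtm1* KO + TAM minus WT. The *Myl4* share moved to 0.815 in *Mtm1* KO minus WT, -0.557 in *Mtm1* KO + TAM minus *Mtm1* KO and 0.0146 in WT + TAM minus WT. The 2 ratios chosen after the data were seen moved by less than 1 SD with all 16 libraries and when each library was left out. They were not recomputed from raw counts. The smallest p that these exact tests allow is 0.0286, and WT replicate 3, with 12 *Myl2* counts, limits the slow chain values.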
